A study of Rattus norvegicus with 22 samples.

Results

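Described here are 10 genes that respond to neuronal activity, 9 rapid early genes and Bdnf, out of 29663 genes in the deposited table. They were chosen by their Ensembl IDs and described in every library: Fos (ENSRNOG00000008015), Fosb (ENSRNOG00000046667), Junb (ENSRNOG00000042838), Egr1 (ENSRNOG00000019422), Egr2 (ENSRNOG00000000640), Arc (ENSRNOG00000043465), Npas4 (ENSRNOG00000020009), Nr4a1 (ENSRNOG00000007607), Dusp1 (ENSRNOG00000003977) and Bdnf (ENSRNOG00000047466). The table holds IDs alone, and the symbols came with the list of IDs. Prefrontal cortex RNA of male Sprague-Dawley rats was sequenced in 12 libraries, with 3 for each treatment: control, cocaine, WIN, and WIN with cocaine. WIN names a synthetic agonist of cannabinoid receptors. The title of the series places the cannabinoid exposure in adolescence and speaks of the initial response to cocaine. The sources used here give no doses, ages or vehicle for the controls, and no time from cocaine to tissue. Nothing in the labels ties a replicate to its own animal, and the spread that the p-values rest on may be technical.

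When a neuron fires, calcium entry and kinase cascades activate transcription factors that are already present, such as CREB and the serum response factor. These switch on early genes within minutes, without new protein synthesis, and the early genes' own products then regulate later genes. The mRNAs are short-lived, so their levels in tissue report recent activity, and psychostimulants such as cocaine are known inducers of several of them in forebrain. In bulk tissue, fewer responding cells and less RNA per cell cannot be told apart.

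Promoters are shown for 4 of the 8 genes that were higher in cocaine than in control at an unadjusted p under 0.05, because CREB and serum response factor sites are the textbook elements of this class. The 4 are a choice and each held a match, while Fosb, also among the 8, held neither kind of site. The sequences are those of RefSeq in build GRCr8, each the 250 bases before the annotated start, 5′ to 3′. Capitals mark the core of the CREB element (TGACG or its reverse complement CGTCA, which overlap in the full element TGACGTCA) and the CArG box of the serum response factor. Egr2 lies at chr20:21054442-21054691 on the minus strand, Dusp1 at chr10:17184603-17184852, Nr4a1 at chr7:134259888-134260137 and Junb at chr19:40080876-40081125, these 3 on the plus strand.
Egr2: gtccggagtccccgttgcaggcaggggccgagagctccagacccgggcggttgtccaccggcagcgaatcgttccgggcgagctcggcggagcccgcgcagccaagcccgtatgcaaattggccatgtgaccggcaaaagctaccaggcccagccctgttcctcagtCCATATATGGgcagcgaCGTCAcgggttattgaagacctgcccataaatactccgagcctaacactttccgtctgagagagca
Dusp1: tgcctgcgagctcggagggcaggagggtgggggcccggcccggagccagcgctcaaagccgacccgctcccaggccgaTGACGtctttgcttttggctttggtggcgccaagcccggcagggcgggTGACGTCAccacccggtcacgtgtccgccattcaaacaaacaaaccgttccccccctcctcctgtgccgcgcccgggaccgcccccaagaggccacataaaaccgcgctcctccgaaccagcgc
Nr4a1: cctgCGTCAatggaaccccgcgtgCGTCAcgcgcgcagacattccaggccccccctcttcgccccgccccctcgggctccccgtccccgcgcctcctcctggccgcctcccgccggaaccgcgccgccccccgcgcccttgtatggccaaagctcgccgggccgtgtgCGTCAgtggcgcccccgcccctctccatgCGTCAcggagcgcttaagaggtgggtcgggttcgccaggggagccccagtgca
Junb: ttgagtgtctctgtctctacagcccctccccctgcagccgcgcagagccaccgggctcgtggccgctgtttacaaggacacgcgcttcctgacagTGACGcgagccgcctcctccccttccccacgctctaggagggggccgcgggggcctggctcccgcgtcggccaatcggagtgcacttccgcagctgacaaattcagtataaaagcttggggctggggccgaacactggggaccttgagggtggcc
In Egr2 the CArG box begins 83 bases and the core 66 bases before the start. Nr4a1 held 4 cores, at 246, 226, 82 and 53 bases. Dusp1 held 1 full element, at 124 bases, which makes up 2 of its 3 cores. Junb held 1 core, at 155 bases. Windows were present for 8 of the 10 genes (Fosb, Junb, Egr1, Egr2, Npas4, Nr4a1, Dusp1 and Bdnf). Egr1 held 2 CArG boxes and 2 cores, and Bdnf, with 6 annotated starts, held 1 core in 1 of its 6 windows. Fosb and Npas4 held neither. Among all 33469 windows of the same length, searched on both strands, 18.2% held a core, 1.59% the full element and 1.50% a CArG box. These matches describe letters in a window and are not evidence of binding.

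The AP-1 subunits, which pair through leucine zippers to bind DNA, had their highest group mean in cocaine. Fos measured 22.7, 23.1 and 24.6 FPKM (reads scaled to the length of the gene and the total of the library) in cocaine replicates 1, 2 and 3, against 4.87, 10.05 and 15.6 in control. All 3 cocaine values lay above every other library. In WIN with cocaine Fos was at 5.27, 16.0 and 10.1 FPKM, and in WIN alone at 2.93, 8.87 and 10.5. Both groups thus overlapped control, and only cocaine was narrow, with an SD of 0.994 around 23.5 FPKM beside 5.37 around 10.2 in control (n = 3).

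Fosb, whose splice form ΔFosB is known to build up with repeated drug exposure, measured 4.99, 5.08 and 8.54 FPKM in cocaine and 2.95, 3.20 and 3.94 in control. The FPKM values were 2.80, 2.56 and 2.68 in WIN, below all 3 controls, and 2.89, 4.19 and 3.96 in WIN with cocaine. The table is per gene, so the splice forms are not separated. Junb, a partner of the Fos proteins, measured 138, 166 and 98.3 FPKM in cocaine against 48.4, 62.1 and 86.6 in control. It was at 62.7, 106 and 78.2 FPKM in WIN with cocaine and 42.2, 70.1 and 85.0 in WIN. Cocaine replicate 3 was the lowest of its group for Junb, below WIN+cocaine replicate 2, while for Fos and Fosb it was the highest of the 12 libraries.

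**Figure D1:**
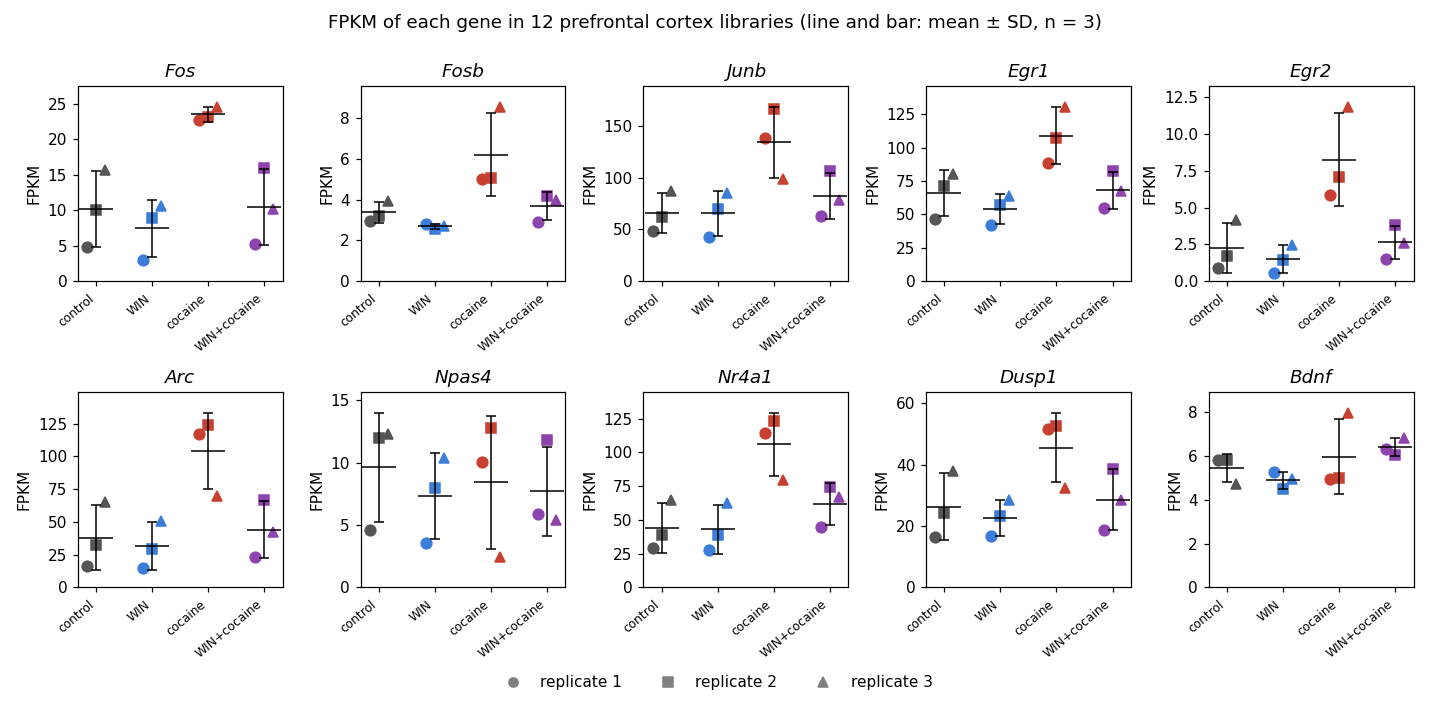
FPKM of each gene (vertical axes, each from 0) in the 4 groups, with 1 point per library, the symbol giving the replicate number, and a line and bar for the mean ± SD (n = 3). In Fos all 3 cocaine points lie at 22.7 FPKM or more, above every other library, and in Npas4 and Bdnf the cocaine points overlap those of the 3 other groups.

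The zinc finger factors Egr1 and Egr2 followed the same order of groups at very different levels. Egr1, one of the most used markers of neuronal activity, measured 88.2, 107 and 131 FPKM in cocaine and 46.5, 71.3 and 80.0 in control. It was at 54.7, 82.4 and 67.6 FPKM in WIN with cocaine and 42.0, 57.0 and 63.6 in WIN. Egr2, also needed for myelination in peripheral nerve, measured 5.87, 7.06 and 11.8 FPKM in cocaine and 0.877, 1.69 and 4.16 in control. It was at 1.51, 3.79 and 2.60 FPKM in WIN with cocaine and 0.562, 1.45 and 2.46 in WIN. For both genes every cocaine library lay above the 9 others. The Egr2 values rest on 46 to 916 reads per library and those of Egr1 on 3406 to 10647, so counting error is small beside the spread between libraries.

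Nr4a1, an orphan nuclear receptor that is itself an early gene, measured 114, 124 and 79.6 FPKM in cocaine and 28.9, 38.9 and 64.8 in control. It was at 44.5, 74.4 and 66.9 FPKM in WIN with cocaine and 27.3, 38.9 and 62.4 in WIN, so the 3 cocaine values again stood above the other 9 libraries. Npas4, a factor switched on in neurons by calcium entry, did not follow this order. It measured 10.02, 12.8 and 2.47 FPKM in cocaine and 4.60, 11.99 and 12.3 in control. The Npas4 FPKM was 5.89, 11.8 and 5.42 in WIN with cocaine and 3.58, 7.97 and 10.4 in WIN, and all 4 groups overlapped.

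Arc encodes a synaptic protein that promotes the removal of AMPA receptors. Its FPKM was 117, 124 and 70.0 in cocaine and 16.3, 32.4 and 65.2 in control. In WIN with cocaine it was 23.3, 66.4 and 42.5, and in WIN 14.4, 29.3 and 50.8. The lowest cocaine library stood close above the highest of the others, WIN+cocaine replicate 2. Dusp1 encodes a phosphatase that switches off MAP kinases and so limits the signal that induces it. Its FPKM was 51.5, 52.5 and 32.4 in cocaine and 16.4, 24.1 and 37.9 in control, and cocaine replicate 3 lay within the control range. In WIN with cocaine Dusp1 was at 18.6, 38.5 and 28.4 FPKM and in WIN at 16.6, 23.2 and 28.3.

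Bdnf, the secreted neurotrophin that signals through the TrkB receptor, varied least of the 10 genes within groups. It measured 4.96, 5.01 and 7.98 FPKM in cocaine, 5.84, 5.85 and 4.73 in control, 6.32, 6.06 and 6.85 in WIN with cocaine and 5.26, 4.49 and 4.98 in WIN. The 3 values of WIN with cocaine lay above those of both control and WIN.

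By mean level, cocaine was the highest group in 8 of the 10 genes, the exceptions being Npas4 and Bdnf, and WIN was the lowest in 9, the exception being Junb. The full order of cocaine, WIN with cocaine, control and WIN held in 7 genes (Fos, Fosb, Egr1, Egr2, Arc, Nr4a1 and Dusp1). Of all 15326 genes tested, 5.29% had that order, 34.1% had their highest mean in cocaine and 15.1% their lowest in WIN. Below cocaine most neighbours in the order overlapped: WIN with cocaine and control overlapped in all 7, and control and WIN in 6 of them, Fosb being separate.

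Cocaine was then compared with control by limma on log2(FPKM + 1), fitted over all genes. Of the 10 genes, 8 were higher in cocaine at an unadjusted p under 0.05, beside 15.1% of all genes, and none was lower. The 2 others were Npas4 and Bdnf. In either direction 31.1% of all genes had an unadjusted limma p under 0.05. For the 8, the share of all genes with a p as small or smaller ran from 2.94% for Egr2 to 23.1% for Dusp1. After Benjamini-Hochberg adjustment limma called 0 of the 10 at 0.05, and 0% of all genes; limma voom on reads recovered from the FPKM values also called 0 of the 10. At an adjusted p under 0.10, 7 of the 10 were higher, against 10.1% of all genes. In 7 the 3 cocaine values lay above the 3 control values, beside 18.5% of all genes. The median log2 difference of the 10 was 0.92, beside -0.02 for all genes.

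The largest differences were in Arc and Egr2, each 3.01-fold on this scale, which understates change at low values. Arc differed by a log2 value of 1.59 with an SE of 0.53 (adjusted p = 0.0804 in limma). Egr2 differed by 1.59 with an SE of 0.40 (adjusted p = 0.0597 in limma), and by 2.08 in voom. Nr4a1 followed at 1.29 ± 0.33 (SE), Fos at 1.25 ± 0.46, Junb at 1.03 ± 0.29, Dusp1 at 0.82 ± 0.32, Egr1 at 0.73 ± 0.22 and Fosb at 0.69 ± 0.18. The adjusted limma p of these ran from 0.0597 in Fosb and Nr4a1 to 0.112 in Dusp1. Npas4 differed by -0.29, with a 95% interval from -1.45 to 0.86, and Bdnf by 0.09, from -0.23 to 0.41. For Bdnf a difference as large as that of Fosb lay outside the interval, and for Npas4 it lay inside.

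These calls depended on the fit. With a weight for each library, limma called 2 of the 10 in cocaine against control after adjustment, beside 13.6% of all genes. A fit of only the cocaine and control libraries called 3, beside 8.99%. WIN replicate 3 enters only the shared estimate of the spread, and without it limma called 6 of the 10 in cocaine against control, along with 18.2% of all genes. These were Nr4a1 (adjusted p = 0.0195), Egr2 (0.0226), Fosb (0.0298), Junb (0.0317), Egr1 (0.0460) and Arc (0.0495). Over the 21 alternatives the adjusted limma or voom p of these 6 ran up to 0.242. Without control replicate 1, in which 9 of the 10 genes were lowest of their group, the 8 genes with an unadjusted p under 0.05 became 5, beside 13.4% of all genes that were higher, and Dusp1 differed by 0.54. Npas4 turned to 0.32 and Bdnf to -0.11 without cocaine replicate 3.

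**Figure D2:**
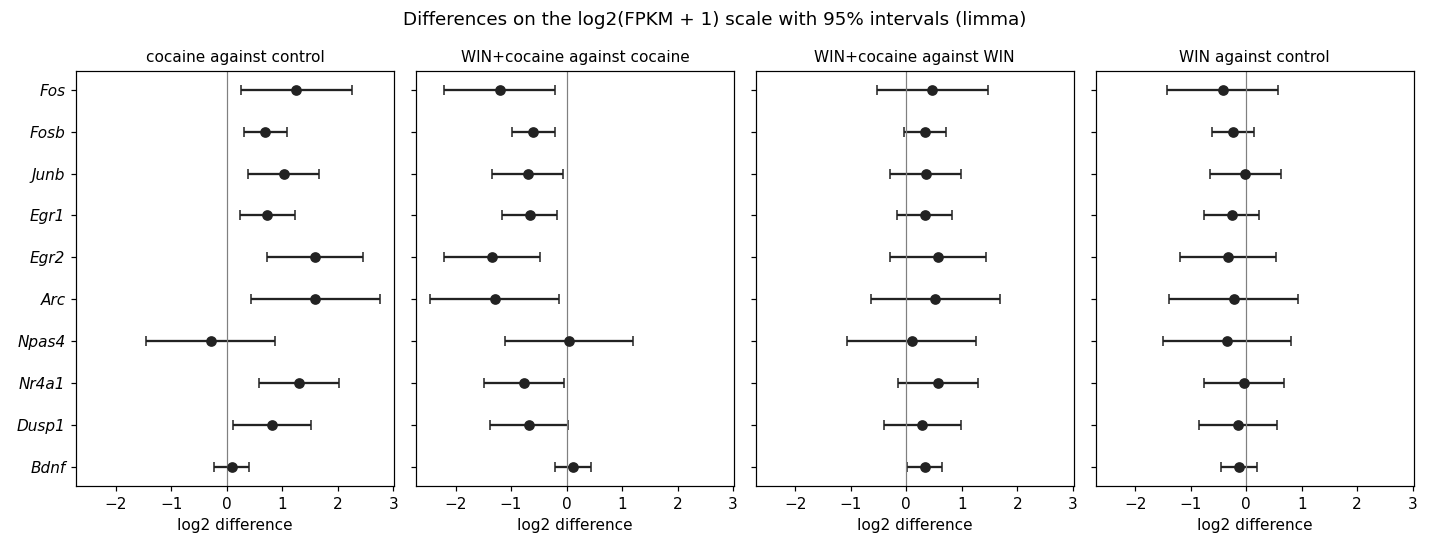
Log2 differences of the 10 genes on the log2(FPKM + 1) scale (horizontal axes) with 95% intervals from limma, in 4 comparisons. In cocaine against control 8 intervals lie above 0, and in WIN with cocaine against cocaine 7 lie below it; none of these passed an adjusted p of 0.05.

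The next comparison, of WIN with cocaine against cocaine, sets both groups given cocaine side by side. Here 7 of the 10 genes were lower in WIN with cocaine at an unadjusted p under 0.05, beside 4.53% of all genes, and none was higher. The 7 were Fos, Fosb, Junb, Egr1, Egr2, Arc and Nr4a1. After adjustment limma called 0 of them, and 0% of all genes, and voom called 0 of the 10. The groups were separate, with all WIN+cocaine values below all cocaine values, in 6 of the 10, beside 6.70% of all genes. The median log2 difference of the 10 was -0.69, beside 0.02 for all genes.

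Egr2 had the lowest log2 difference in that comparison, -1.35 with an SE of 0.40, or 0.394-fold on the log2(FPKM + 1) scale. That scale understates change at low values. The mean of Egr2 was 2.64 FPKM in WIN with cocaine and 8.26 in cocaine, and in voom it differed by -1.72. Arc differed by -1.29 ± 0.53 (SE), Fos by -1.21 ± 0.46, Nr4a1 by -0.77 ± 0.33, Junb by -0.70 ± 0.29, Dusp1 by -0.68 ± 0.32, Egr1 by -0.67 ± 0.22 and Fosb by -0.60 ± 0.18. The adjusted limma p was 0.468 for the 7 genes and 0.473 for Dusp1. Bdnf differed by 0.11 and Npas4 by 0.04. The count of 7 was 2 without WIN+cocaine replicate 1 (Fosb and Egr2), beside 5.25% of all genes that were lower. It was 4 (Fos, Fosb, Egr1 and Egr2) without cocaine replicate 1, cocaine replicate 2 or WIN+cocaine replicate 3, beside 2.62%, 4.24% and 2.97%. Without cocaine replicate 3, Fos and Egr1 missed an unadjusted p of 0.05, Dusp1 reached it, and Fosb stood at -0.38. Bdnf reached it there too, but in the other direction, higher in WIN with cocaine by 0.31. In that fit 6.48% of all genes were lower and 7.47% higher at an unadjusted p under 0.05. This comparison and the one before share the cocaine libraries.

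With WIN, the cocaine difference was smaller in value for 8 of the 9 early genes, Npas4 being the other. All 10 genes had a higher mean log2 value in WIN with cocaine than in WIN, with a median of 0.34, beside 0.00 for all genes. Bdnf alone was at an unadjusted p under 0.05, beside 2.56% of all genes that were higher. It differed by 0.33 with an SE of 0.15, and its adjusted limma p was 0.975. Limma called 0 of the 10 and 0% of all genes after adjustment, and voom called 0 of the 10. The groups were separate in Fosb and Bdnf, 2 of the 10, beside 4.52% of all genes. Bdnf missed an unadjusted p of 0.05 without any 1 of the 6 libraries compared or without control replicate 1 or 2. Nr4a1 differed by 0.57 ± 0.33 (SE), Egr2 by 0.57 ± 0.40, Arc by 0.52 ± 0.53 and Fos by 0.47 ± 0.46, so their 95% intervals held 0.

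WIN against control and WIN with cocaine against control showed no gene of the 10 at an unadjusted p under 0.05, beside 1.55% and 7.91% of all genes in either direction. Limma called 0 of the 10 and 0% of all genes in both after adjustment, and voom called 0 of the 10. In WIN all 10 genes had a lower mean log2 value than in control, with a median of -0.23, beside 0.00 for all genes. The differences ran from -0.42 in Fos to -0.02 in Junb, whose mean FPKM was not lower in WIN. Fosb alone was separate from control there, at -0.24 ± 0.18 (SE), beside 2.75% of all genes that were separate and lower. In WIN with cocaine against control Bdnf alone was separate, at 0.20 ± 0.15, beside 11.0% of all genes that were separate and higher. Nr4a1 had the highest value there, 0.52 ± 0.33.

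The interaction tests directly whether the cocaine difference was smaller with WIN than without it. It was negative in 8 of the 10 genes and positive in Npas4 and Bdnf, and none reached an unadjusted p of 0.05, beside 9.02% of all genes in either direction. The median of the 10 was -0.61, beside 0.02 for all genes. Most of these genes vary together between libraries, so their signs are not independent. Limma called 0 of the 10 and 0% of all genes after adjustment, and voom called 0 of the 10. Arc had the most negative value, -1.07, with a 95% interval from -2.71 to 0.57. Egr2 stood at -1.02, from -2.24 to 0.20, with an unadjusted limma p of 0.0939. Fos stood at -0.78, from -2.20 to 0.63. The intervals thus reach from a much smaller cocaine difference with WIN to a larger one. Without WIN replicate 1, 4 of the 10 reached an unadjusted p of 0.05 (Fos, Junb, Egr2 and Nr4a1), beside 13.5% of all genes in either direction. Without control replicate 3 it was 3 (Egr2, Arc and Nr4a1), beside 7.20%, and without cocaine replicate 3 it was Bdnf alone, beside 12.4%.

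**Figure D3:**
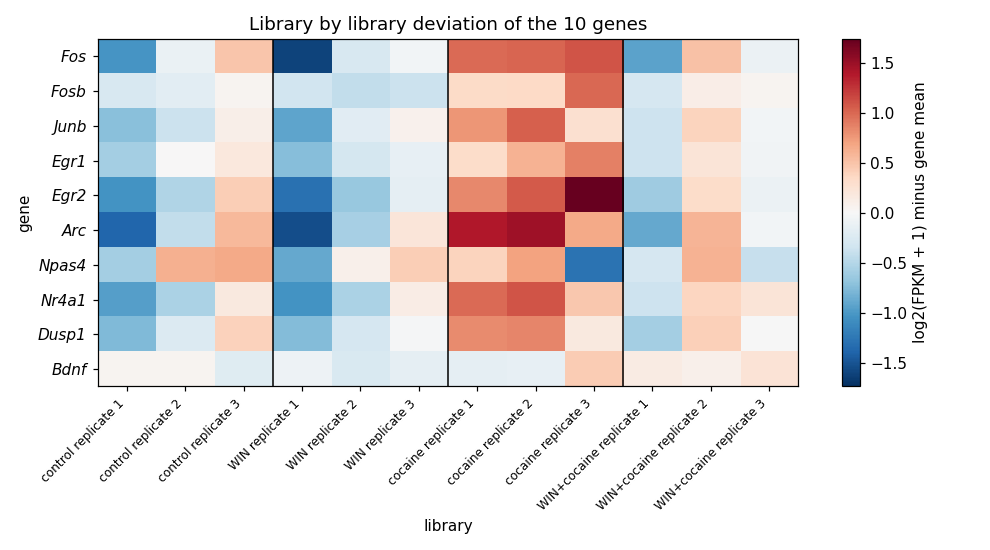
Deviation of each library (columns, 4 groups of 3) from the gene's mean over the 12 libraries, on the log2(FPKM + 1) scale, for the 10 genes (rows), red above and blue below the mean. Cocaine libraries are red in 8 genes, replicate 1 is the bluest library of control, WIN and WIN with cocaine in most genes, and Npas4 is deep blue in cocaine replicate 3.

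Within 3 of the groups most genes were high or low in the same libraries. Control replicate 1 was the lowest control in 9 of the 10 genes and control replicate 3 the highest in 9. WIN replicate 1 was the lowest of its group in 8, and 6 genes (Fos, Junb, Egr1, Egr2, Arc and Nr4a1) had their lowest value of all 12 libraries there. WIN+cocaine replicate 1 was the lowest of its group in 8, and WIN+cocaine replicate 2 the highest in 9. The cocaine group did not share this pattern: replicate 1 was lowest in 5 genes and replicate 3 in the other 5. The shares of all genes lowest or highest in these libraries were not set beside the counts. FPKM values are scaled to each library's total, which ran from 20852442 to 27677077 reads. Whether handling or the time of tissue collection differed between these libraries was not tested, and the labels give neither.

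Cocaine replicate 3 set the genes apart from each other. It held the highest value of all 12 libraries for Fos, Fosb, Egr1, Egr2 and Bdnf, and cocaine replicate 2 held the highest for Junb, Arc, Npas4, Nr4a1 and Dusp1. For Npas4 cocaine replicate 3 was the lowest of the 12 libraries, with 159 reads against 571 and 734 in the other cocaine libraries. The level of Fos relative to Npas4, a ratio of FPKM values and so per length, was 9.95 in that library. It was 2.26 and 1.81 in cocaine replicates 1 and 2, and ran from 0.818 in WIN replicate 1 to 1.87 in WIN+cocaine replicate 3 elsewhere. Relative to Fos, Arc was lowest in the same library, at 2.85, beside 5.16 and 5.34 in the other cocaine libraries.

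**Figure D4:**
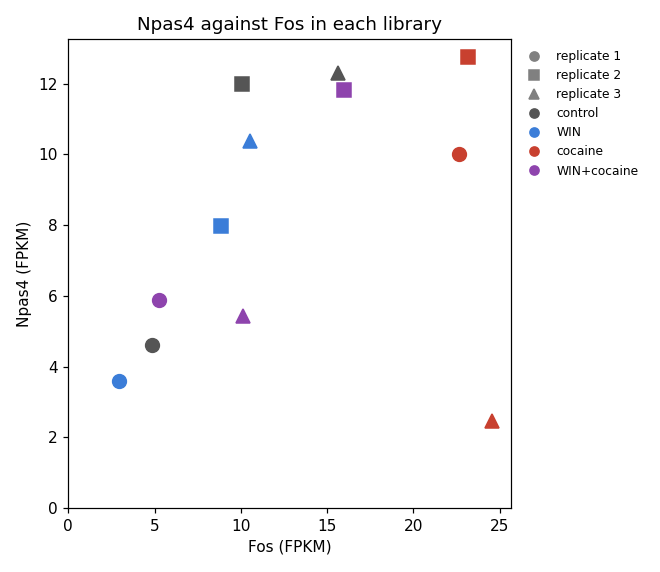
FPKM of Npas4 (vertical axis) against that of Fos (horizontal axis), 1 point per library, with colour for the group and symbol for the replicate. Cocaine replicate 3 lies alone at the lower right, at 24.6 FPKM of Fos and 2.47 of Npas4.

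Most of the early genes were among the most variable of the tissue between libraries of 1 group. The within-group SD on the log2(FPKM + 1) scale was 0.783 in Arc, 0.776 in Npas4, 0.671 in Fos and 0.574 in Egr2, beside a median of 0.143 over all genes tested. Arc and Npas4 stood at percentile 99.2 of all tested genes, Fos at 98.6, Egr2 at 97.6, Nr4a1 at 96.4, Dusp1 at 96.2, Junb at 95.4 and Egr1 at 92.0. Fosb, at 0.237 and percentile 84.2, and Bdnf, at 0.194 and percentile 74.6, varied least of the 10. Fosb therefore had the smallest SE of the 8 genes higher in cocaine, and Arc the largest. All 10 genes passed the filter on low values, and the fewest reads behind any single value were 46, for Egr2 in WIN replicate 1.

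**Figure D5:**
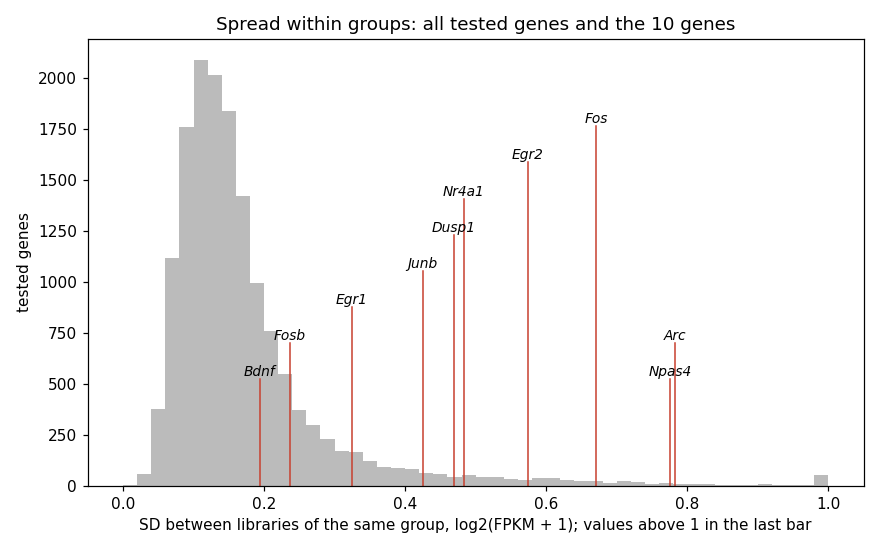
Number of tested genes (vertical axis) by their SD between libraries of the same group on the log2(FPKM + 1) scale (horizontal axis, bins of 0.02, values above 1 in the last bar), with a red line at the SD of each of the 10 genes, whose height has no meaning. Of the 10 only Bdnf and Fosb lie near the bulk of genes, and Arc and Npas4 lie at 0.783 and 0.776.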

How the data were processed

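The authors deposited 1 FPKM value per gene for each of 12 libraries of prefrontal cortex. The libraries were made with a stranded kit, per the labels' protocols. HISAT2, HTSeq and DESeq appear, without versions, in the submitters' processing notes. The sources used here give no build, annotation or strand setting, so reads of overlapping antisense genes may be shared. The ATAC tracks, whose build is not given, and the 6 nucleus accumbens libraries were not used here.

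Whole reads were recovered for all 24197 genes with a value. Each gene's FPKM values are whole multiples of 1 step after 1 factor per library, within 1e-05 of a read, scaled up for high counts. The 15326 genes that reached an FPKM of 1 in 3 or more libraries were fitted with limma 3.58.1 (R 4.3.3). Values were log2(FPKM + 1), each of the 4 groups had its own mean, the prior variance followed a trend, and p-values were adjusted by Benjamini-Hochberg over all genes within a comparison. The limma procedure was tested on simulated data with independent noise in each gene, which leaves out deviations that libraries share across genes. The outcome is not given here. All 10 genes are named, with every value, and a gene was followed through the 21 alternatives where its unadjusted p was under 0.05; the 2 tested genes most like their mean profile are added. The genes and tests were chosen with earlier results of these data known. The fixed lists of other activity-induced genes and of cell type markers need symbols for the IDs and were not analysed here. Pairing by replicate number was judged from the labels and from correlations of deviations, given with the limits. No value columns were left unused.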

Additional observations from a re-analysis of the deposited data

How the results depend on the processing

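In cocaine against control the 8 genes at an unadjusted p under 0.05 were higher in cocaine in all 21 alternatives. The count at an adjusted p of 0.05 was 0 except for 2 with library weights (Fosb and Egr2, beside 13.6% of all genes), 3 with only the libraries compared (Junb, Egr2 and Nr4a1, beside 8.99%), and a range of 0 to 6 over the left-out libraries; the 6 came without WIN replicate 3, which had the lowest library weight, 0.296. The count at an unadjusted p was 5 to 8 over the left-out libraries, beside 18.7% to 35.2% of all genes in either direction. For WIN with cocaine against cocaine that count was 3 with library weights, beside 10.7% of all genes in either direction. Over the left-out libraries it was 2 to 8, beside 6.58% to 15.3%. Without cocaine replicate 3 it included Bdnf, which was higher in WIN with cocaine. For WIN with cocaine against WIN the count was 0 with no filter, with median ratio rescaling and with quantile normalization. It was 2 with library weights, beside 13.8% of all genes, and 2 in a fit of just the compared groups, beside 2.97%. Leaving out libraries gave 0 to 2, beside 2.36% to 14.8% of all genes. Over the left-out libraries the count was 0 to 1 for WIN against control, beside 0.95% to 3.13% of all genes. It was 0 to 1 for WIN with cocaine against control, beside 3.36% to 11.9%, and 0 to 4 for the interaction, beside 3.89% to 13.5%. The cause of these changes was not tested.

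With the replicate number as a block the count at an unadjusted p was 1 in WIN against control (Egr1), 3 in WIN with cocaine against WIN (Fosb, Egr1 and Egr2, with Bdnf no longer among them) and 2 in the interaction (Egr1 and Egr2), beside 1.64%, 3.67% and 8.01% of all genes in either direction. In cocaine against control the unadjusted limma p went from 0.00709 to 4.84e-05 with the block in Egr1, and from 0.00178 to 2.92e-05 in Egr2. With the block 0 of the 10 were called after adjustment in any comparison. The numbers were not taken to pair the libraries. Over all tested genes the deviations of libraries that share a number had correlations from -0.281 to 0.196, and 4 of 12 libraries were closest to one of their own number. Among the 10 genes, replicate 1 was the lowest of its group in 9 in control and in 8 in WIN. It was lowest in 8 in WIN with cocaine and in 5 in cocaine. No share over all genes was set beside these counts, and the 10 genes are not independent of each other, so the counts do not decide on a pairing. With 3 libraries a group, even differences above the within-group SD were not called after adjustment in the main fit. Egr2 differed by 1.59 in cocaine against control, beside an SD of 0.574. The smallest difference that could be detected was not computed.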

Other observations

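Outside the 10 genes, the tested gene whose log2(FPKM + 1) values over the 12 libraries were most like the mean standardized profile of the 10 was ENSRNOG00000035516, with Pearson's r of 0.969 as a measure of likeness. Its FPKM was 8.84, 10.9 and 23.3 in control, 5.37, 9.65 and 13.6 in WIN, 35.1, 36.0 and 26.9 in cocaine, and 13.2, 23.3 and 16.1 in WIN with cocaine. All 3 cocaine values lay above the other 9 libraries. The next was ENSRNOG00000023896, with r of 0.967 and a narrower range, from 11.9 FPKM in control replicate 1 to 20.4 in cocaine replicate 3. Both were picked from all tested genes for this likeness, and the table at hand gives no symbol for either.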
